A study of Mus musculus with 4 samples.

Results

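The dystrophin-glycoprotein complex joins the actin cytoskeleton of a muscle fibre to the basement membrane. Here 8 of its genes were followed across 4 microarrays of differentiating C2C12 cells: the cytoskeletal anchors dystrophin (Dmd) and its autosomal relative utrophin (Utrn), dystroglycan (Dag1), the sarcoglycans Sgca, Sgcb, Sgcd and Sgce, and the adaptor Sntb1, beta-1 syntrophin. The genes were chosen by symbol, as members of the complex, with earlier results of these data known. The array carried 24 probe sets annotated to exactly 1 of these symbols, between 1 and 6 per gene, among 18193 genes in all. The probe set with the highest mean signal stands for each gene, and the others are given beside it.

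Dystrophin binds actin at one end and the cytoplasmic tail of dystroglycan at the other, and the outer part of dystroglycan binds laminin through sugar chains. Sarcoglycans stabilise dystroglycan in the membrane, and syntrophins carry signalling proteins to dystrophin. Utrophin can take the place of dystrophin, is the usual form in immature muscle and becomes restricted to the neuromuscular junction as fibres mature. Loss of dystrophin, of individual sarcoglycans or of the enzymes that glycosylate dystroglycan causes muscular dystrophies.

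C2C12 is an established mouse myoblast line that fuses into myotubes when serum is lowered, so all arrays come from 1 line in culture, without nerve. Cells were moved from 10% fetal bovine serum to 2% horse serum, both with 25 mM glucose, and RNA was taken after 48 h with vehicle (2 arrays, control 1 and control 2), with tranylcypromine, an amine oxidase inhibitor called TC in the labels (1 array), or with S2101, known here by its code name (1 array). The labels describe both compounds as inhibitors of the histone demethylase LSD1 and state no dose. Whether each array stands for its own culture is not stated, so the spread behind the p-values may be technical.

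Measured values are MAS5 signals, a brightness per probe set on a linear scale that had been adjusted to the same average on each array; a signal of one probe set cannot be set against that of another. Median signals over all probe sets were 63.4 to 75.1, and the 3′ probe set of Gapdh read 0.743 to 0.790 times its 5′ probe set, a measure of how intact the RNA was. Of 16 skeletal muscle markers 15 reached the signal used as the lower limit for testing (178.8, the median gene), and myogenin (Myog) stood between 11963 and 13386 on every array, and 6 of 7 fibroblast matrix markers and 6 of 8 markers of smooth muscle or myofibroblasts reached it too, the latter with Acta2 at 27330 to 31972 but Cnn1 and Myh11 below it. Of 5 adipocyte markers only Lpl reached the limit (669 to 901). Kdm1a, which encodes LSD1, did not pass the test (log2 difference -0.12 ± 0.07; adjusted p = 0.343, limma), and its transcript says nothing about enzyme activity. In these bulk samples fewer cells of a type and less RNA per cell cannot be told apart.

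Promoter sequence is shown for 3 members that differ in their signals below: Dmd, dim on every array, Dag1, which had the lowest p of the 6 members bright enough to test, and Sgca, a striated muscle gene whose values overlapped between treatments. RefSeq (GRCm38.p6) windows were found for 6 of the 8 genes, 8 windows in all, and the 250 bases before each start were searched on both strands for the E-box CANNTG, bound by myogenic factors, the GC box GGGCGG, the CArG box, bound by serum response factor, the MEF2 site and the letters TATAAA. Each line runs 5′ to 3′ up to the base before the start, and capitals mark E-boxes, GC boxes and the CArG box. They are Dmd at chrX:82948620-82948869 (plus strand), Sgca at chr11:94976328-94976577 (minus strand) and the upstream one of 2 overlapping Dag1 windows at chr9:108263959-108264208 (minus strand).
Dmd: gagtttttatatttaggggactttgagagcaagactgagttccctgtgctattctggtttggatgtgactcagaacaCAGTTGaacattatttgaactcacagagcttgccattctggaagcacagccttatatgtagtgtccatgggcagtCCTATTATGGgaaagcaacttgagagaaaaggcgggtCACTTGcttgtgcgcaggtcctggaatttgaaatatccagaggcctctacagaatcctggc
Sgca: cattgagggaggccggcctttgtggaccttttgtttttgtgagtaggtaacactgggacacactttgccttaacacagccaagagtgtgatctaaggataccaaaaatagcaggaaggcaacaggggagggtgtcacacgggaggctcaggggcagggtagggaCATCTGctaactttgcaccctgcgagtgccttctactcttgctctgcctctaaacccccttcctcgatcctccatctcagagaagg
Dag1: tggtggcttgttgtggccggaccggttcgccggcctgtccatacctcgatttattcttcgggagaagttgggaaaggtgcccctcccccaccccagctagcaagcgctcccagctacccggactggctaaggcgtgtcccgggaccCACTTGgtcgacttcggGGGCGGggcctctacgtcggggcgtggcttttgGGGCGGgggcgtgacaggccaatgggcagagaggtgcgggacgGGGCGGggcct
The Dmd window held 1 CArG box, CCTATTATGG, 98 to 89 bases before the start, 2 E-boxes and 1 match to the MEF2 site 244 to 235 bases before the start, which overlaps the match to TATAAA. A CArG box lay in 1.47% of all 32851 windows of this length, a MEF2 match in 2.92%, an E-box in 66.2%, a GC box in 32.7% and TATAAA in 12.4%. The Sgca window held 1 E-box and no GC box, and the Dag1 window 1 E-box and 3 GC boxes. RefSeq lists a further Dmd start 2099425 bases downstream, whose window held 3 GC boxes and no E-box. These matches describe letters in a window and do not show binding.

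Both anchors of the complex were measured, but only utrophin gave a signal bright enough to test. The 4 Dmd probe sets had signals between 3.8 and 27.0, and all 16 of these values lay below the median of their array. In its main probe set Dmd stood at 20.1 and 15.6 with vehicle, 25.0 with TC and 27.0 with S2101. Both inhibitor arrays were thus above both controls in this probe set and in 1 other, while the other two overlapped with the controls, and the log2 differences of the 4 ran from -0.16 to 0.21. No fold change is given at this brightness, where the size of a difference follows the offset added before taking log2 (0.16 with the offset of 50 used here, 0.37 with 10 and 0.04 with 250).

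Utrn differed by less than its error between treatments. Its main probe set read 3871 and 3728 with vehicle, 3952 with TC and 3824 with S2101. The S2101 array lay between the controls and the TC array just above them, and the log2 difference of both inhibitor arrays from the controls was 0.03 ± 0.07 (SE, n = 2 against 2; 95% interval -0.12 to 0.19; adjusted p = 0.839, limma with Benjamini-Hochberg over 9097 genes). The interval is for the mean of both compounds, does not bound either compound alone, and rests on a spread that may be technical. The other Utrn probe sets were dim and moved in opposite directions without a test: 1 went from 132.6 and 84.5 on the controls to 62.9 and 48.8, the other from 48.0 and 44.9 to 64.5 and 84.2.

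**Figure D1:**
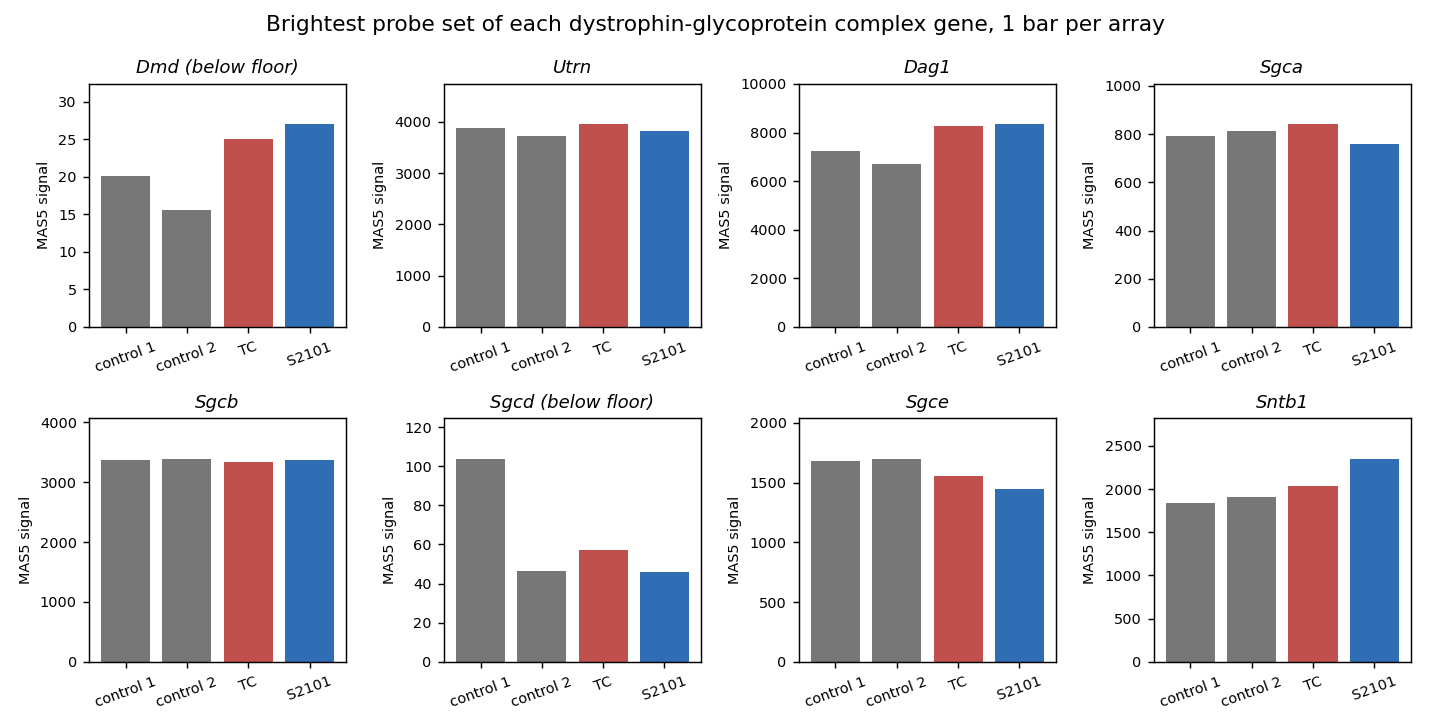
Bars give the MAS5 signal of the brightest probe set of each gene on the 4 arrays, with a separate linear axis from 0 for each gene. Of the 6 tested genes, Dag1 and Sntb1 stood higher on both inhibitor arrays than on both controls, Sgce lower, and Utrn, Sgca and Sgcb overlapped, whereas Dmd and Sgcd lay below the limit for testing.

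Dag1, which encodes both subunits of dystroglycan, came closest to passing. Signals were 7242 and 6725 with vehicle, 8248 with TC and 8342 with S2101. Both inhibitor arrays lay above both controls, and they differed from each other by less than the controls did. The log2 difference was 0.25 ± 0.07 (1.19-fold; n = 2 against 2; 95% interval 0.10 to 0.40), with an unadjusted p of 0.0045 and an adjusted p = 0.0535 (limma), just outside the 0.05 threshold. The range of the adjusted p over 13 alternative settings was 0.051 to 0.384, so it passed under none of them, and the highest came without control 2, where the log2 difference was 0.19.

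The other 3 Dag1 probe sets were also bright. They read 2124 and 2098, 1830 and 1827, and 1474 and 1303 on the controls. With TC they read 2622, 2025 and 1568, and with S2101 2384, 2145 and 1978. Every Dag1 probe set was therefore higher on each inhibitor array than on either control, with log2 differences from 0.18 to 0.33. Probe sets annotated to 1 gene are read on the same arrays and are not independent. The main probe set and the next brightest also list the same source sequence. The names of the next brightest and of the dimmest end in x_at, and whether these read only Dag1 was not tested. The dimmest also enters the mean over the Dag1 probe sets. With each probe set tested on its own, none of the 4 passed for both inhibitors (adjusted p = 0.0839 to 0.246, limma; 4.85% of 14922 probe sets did). For S2101 alone the dimmest of them passed (0.50 ± 0.11; adjusted p = 0.0313, limma; 4.67% of probe sets did), and the mean over the Dag1 probe sets passed too (log2 difference 0.29; adjusted p = 0.0397; 6.6% of genes did), while the main probe set did not (0.26 ± 0.07; adjusted p = 0.0824). By a Euclidean distance between log2 values centred over the 4 arrays, Txlng, Gabarapl2 and Taf12 had the patterns closest to Dag1 among 9096 other genes (distances 0.020, 0.024 and 0.026). None of these 3 passed the test either, and with so few arrays many genes share a pattern.

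No sarcoglycan passed the test. Sgca, alpha-sarcoglycan, is largely confined to striated muscle and has 1 probe set here. It read 794.1 and 814.4 with vehicle, 841.1 with TC and 757.2 with S2101. The TC array was the highest and the S2101 array the lowest of the 4, and the log2 difference of both from the controls was -0.01 ± 0.10 (95% interval -0.23 to 0.21; adjusted p = 0.968, limma). TC minus S2101 was 0.14 ± 0.13 (95% interval -0.16 to 0.44; adjusted p = 0.804, limma), which is not a difference beyond the error.

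Sgcb, beta-sarcoglycan, varied little. It read 3370 and 3390 with vehicle, 3346 with TC and 3371 with S2101. The S2101 value lay between the controls and the TC value just below them, and the log2 difference was -0.01 ± 0.07 (95% interval -0.17 to 0.15; adjusted p = 0.959, limma). The other 2 bright Sgcb probe sets had log2 differences of -0.09 and -0.06, and neither passed (adjusted p = 0.619 and 0.808 with each probe set on its own, limma).

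Sgce, epsilon-sarcoglycan, is the broadly expressed relative of Sgca. It read 1680 and 1699 with vehicle, 1558 with TC and 1450 with S2101. Both inhibitor arrays lay below both controls, yet the log2 difference of -0.16 ± 0.08 (0.893-fold; 95% interval -0.35 to 0.02) did not pass (adjusted p = 0.287, limma; unadjusted p = 0.078). Its second probe set was dim, with signals from 4.3 to 49.8.

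Sgcd, delta-sarcoglycan, had 1 dim probe set and was not tested. It read 103.7 and 46.6 with vehicle, 57.2 with TC and 45.7 with S2101. Control 1 alone stood apart, and the inhibitor arrays were close to control 2. The log2 difference of -0.27 became 0.07 without control 1 and -0.60 without control 2, so no direction can be read from it.

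Sntb1, which binds dystrophin and utrophin, was the other tested member with a higher signal on both inhibitor arrays, besides Dag1. Its main probe set read 1838 and 1908 with vehicle, 2040.4 with TC and 2348 with S2101. The TC array was only slightly above control 2 and the S2101 array further up, and the log2 difference was 0.22 ± 0.09 (1.16-fold; 95% interval 0.02 to 0.42; adjusted p = 0.176, limma; unadjusted p = 0.0328). Of the 4 bright Sntb1 probe sets, 3 had both inhibitor arrays above both controls (log2 differences 0.15, 0.22 and 0.28). Those at 0.15 and 0.22 list the same source sequence and are not independent. The names of the one at 0.28 and of the fourth end in x_at, and whether these read only Sntb1 was not tested. The fourth read 773.7 and 769.3 with vehicle, 608.8 with TC and 875.5 with S2101, so the compounds lay on opposite sides of the controls there. TC minus S2101 in this probe set was -0.49 ± 0.14 and did not pass (adjusted p = 0.448, limma). Averaging all 6 Sntb1 probe sets, 2 of them dim, gave 0.13 for both inhibitors (adjusted p = 0.56, limma).

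Counted together, 0 of the 6 complex genes bright enough to test passed for the inhibitors against the controls (limma, adjusted p under 0.05), where 8.01% of all 9097 genes tested did. At an unadjusted p under 0.05 there were 2 of 6, Dag1 and Sntb1, where all genes gave 22.3%. Both inhibitor arrays lay beyond both controls for 3 of 6, Dag1 and Sntb1 above and Sgce below, and for 51.1% of all genes (27.6% above and 23.4% below), so this share is near the background. The median log2 difference of the 6 was 0.01, as over all genes tested. Over the 14 bright probe sets of all members, 7 had both inhibitor arrays above and 2 below both controls, against 49.3% of all such probe sets beyond the controls in either direction.

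**Figure D2:**
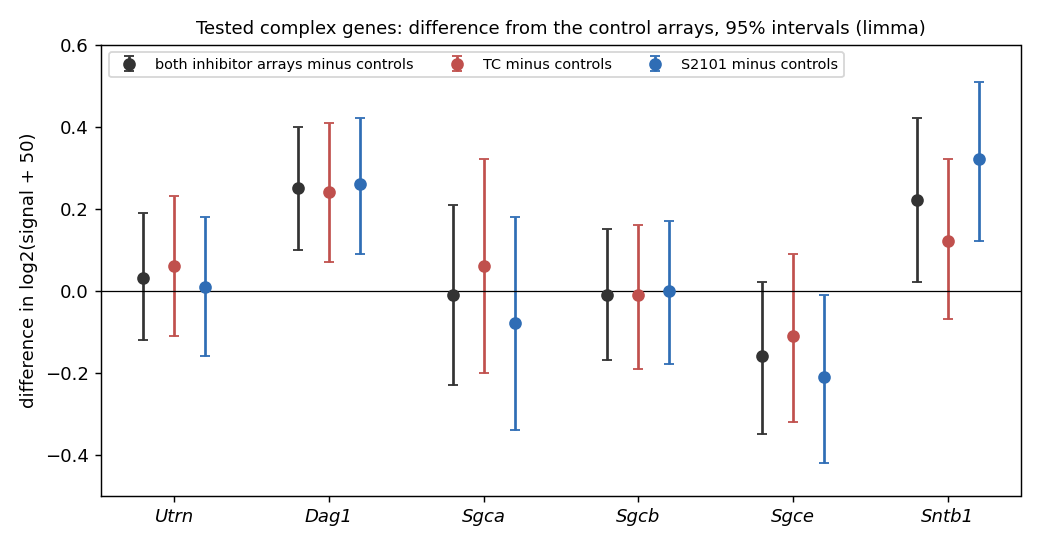
Points give the difference in log2(signal + 50) of both inhibitor arrays, the TC array or the S2101 array from the 2 controls for the 6 tested genes, and bars the 95% interval from limma. For both inhibitor arrays together the interval lies above 0 for Dag1 (0.10 to 0.40) and Sntb1 (0.02 to 0.42) before adjustment over all genes and spans 0 for the other four.

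The compounds share the control arrays, so their differences from control are set side by side and are not independent of each other. Each compound has 1 array, which the fit assumes to vary like the controls, and the doses are not stated. With TC 0 of 6 complex genes passed (limma; 8.18% of all genes did) and 1 had an unadjusted p under 0.05 (23.6% of all genes), namely Dag1. With S2101 again 0 of 6 passed (6.71% of all genes), and 3 had an unadjusted p under 0.05 (20.8% of all genes), Dag1, Sgce and Sntb1. Dag1 differed from the controls by 0.24 ± 0.07 with TC and 0.26 ± 0.07 with S2101 on the log2 scale. Sntb1 differed by 0.12 ± 0.09 with TC and 0.32 ± 0.09 with S2101 (adjusted p = 0.452 and 0.0622, limma), and Sgce by -0.11 ± 0.09 and -0.21 ± 0.09 (adjusted p = 0.511 and 0.222). Between the compounds 0 of 6 passed (0.033% of all genes did) and 0 had an unadjusted p under 0.05 (8.71% of all genes). The largest difference was that of Sntb1, where TC minus S2101 was -0.20 ± 0.10 (95% interval -0.42 to 0.03; adjusted p = 0.615, limma). For Dag1 the 95% interval of TC minus S2101 was -0.21 to 0.18, so the compounds may differ by amounts within that range. The interval is not a detection limit, because larger differences can also miss the adjusted threshold with single arrays.

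**Figure D3:**
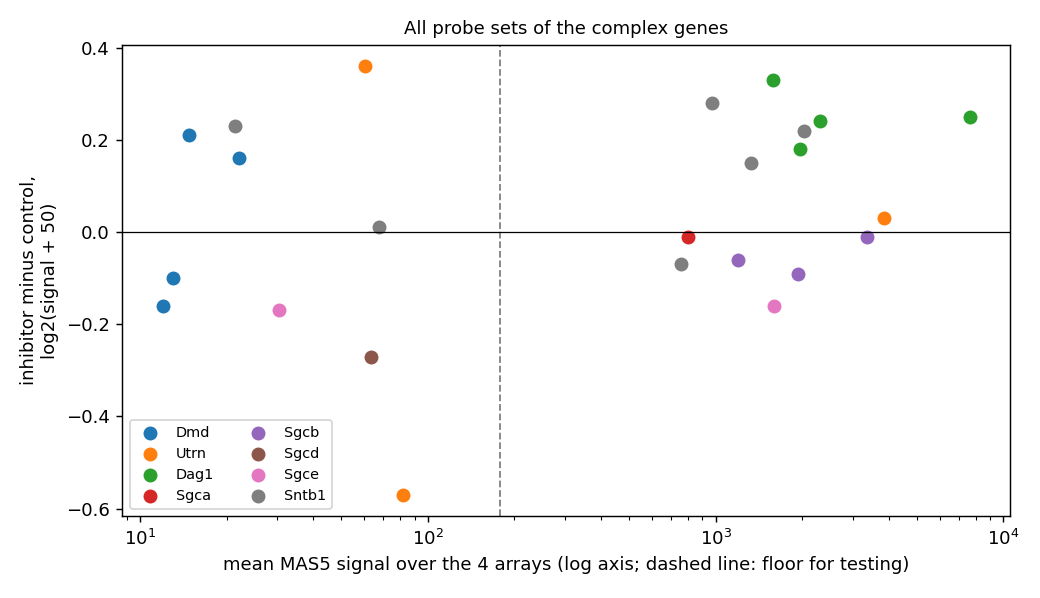
Each point is 1 of the 24 probe sets of the complex genes, with its mean signal over the 4 arrays on a log axis and its inhibitor minus control difference in log2(signal + 50). The 4 Dag1 probe sets lie between 0.18 and 0.33, the 4 Dmd probe sets lie left of the dashed line at 178.8, and the largest difference, -0.57, belongs to a dim Utrn probe set.

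Among other subunits and partners at the membrane, only Cav3 passed the test. Of 8 on the array, 5 were bright enough, 1 fell and 4 did not pass (limma; 3.74% of all genes fell and 4.28% rose). Cav3, the muscle caveolin that binds the same dystroglycan tail as dystrophin, read 404.6 and 402.6 with vehicle, 192.8 with TC and 214.9 with S2101. The inhibitor arrays lay well below both controls, and the log2 difference was -0.84 ± 0.14 (0.559-fold; adjusted p = 0.00461, limma). The call ended when dim genes were kept in the test (adjusted p = 0.0565). The dystrobrevin Dtna (0.16 ± 0.12; adjusted p = 0.502) and the syntrophin Sntb2 (-0.13 ± 0.19; adjusted p = 0.756) did not pass. Their other bright probe sets ran from -0.17 to 0.03 for Dtna and stood at 0.13 for Sntb2.

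Enzymes that build the laminin-binding sugar chain of dystroglycan gave no change past the test. Of 14 on the array, 12 were tested with limma, 0 passed and 2 had an unadjusted p under 0.05, where 8.01% and 22.3% of all genes tested did, so neither count stands above the share over all genes. The 2 were the mannose-extending enzymes Pomgnt2 and Pomgnt1. Pomgnt2 read 197.4 and 181.1 with vehicle, 298.8 with TC and 246.6 with S2101 (log2 difference 0.43 ± 0.16; adjusted p = 0.138, limma). Pomgnt1 read 717.1 and 824.8, then 964.9 and 1035 (0.36 ± 0.10; adjusted p = 0.0647), and passed only without control 2 (0.45; adjusted p = 0.048). Both inhibitor arrays stood above both controls in each, though a dim second Pomgnt2 probe set differed by -0.15. Pomt2, which adds the first mannose, stood at 0.24 ± 0.15 (adjusted p = 0.383).

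Matrix ligands of dystroglycan and their basement membrane partners included genes that fell. Of 15 on the array, 11 were tested, 2 fell and 9 did not pass (limma), where 3.74% of all genes tested fell; with so few genes nothing particular to this group is read from the count. The proteoglycan biglycan, Bgn, which binds the sarcoglycans, read 23248 and 22815 with vehicle, 18851 with TC and 18310 with S2101, with a log2 difference of -0.31 ± 0.06 (0.807-fold; adjusted p = 0.0112, limma). All 3 of its probe sets passed when tested singly (-0.29 to -0.35). Nidogen-1 (Nid1), which links laminin to collagen, read 7618 and 7653, then 5740.2 and 6307 (-0.34 ± 0.07; adjusted p = 0.0161). The calls of Bgn and Nid1 ended without control 1 (adjusted p = 0.0822 and 0.0655) or control 2 (0.0549 and 0.0774), and a second bright Nid1 probe set did not pass (-0.20), so that averaging its probe sets gave -0.19 (adjusted p = 0.272). Nidogen-2 (Nid2) missed the threshold (-0.43 ± 0.12; adjusted p = 0.0548) but passed without control 1 (adjusted p = 0.0354) or S2101 (0.00406), and with quantile normalization (0.0492) or arrays centred on the median (0.035). The laminin chain genes did not pass. Lama2, the main laminin alpha chain of muscle, read 994.9 and 904.1, then 1108 and 1135 (0.23 ± 0.09; adjusted p = 0.177), and Lama5 stood at 0.32 ± 0.10 (adjusted p = 0.0911), with a second probe set that passed when tested singly (0.60; adjusted p = 0.0147). Some markers of smooth muscle or myofibroblasts moved in the same arrays: 4 of 6 tested fell (limma), Tagln (-1.6), Actg2 (-0.92), Ccn2 (-1.67) and Postn (-0.95). Smtn did not pass (-0.02, adjusted p = 0.944, limma), and Cnn1 and Myh11 lay below the limit for testing on average. The summed signal of 8 such genes was 44049 to 45192 on the controls and 32883 to 33617 on the inhibitor arrays. Sums of this kind give most weight to the brightest probe sets and are not levels of a cell type. The brightest here, Acta2 (27330 to 31972), did not pass (-0.16, adjusted p = 0.152, limma). Of 6 fibroblast matrix markers tested 2 fell, Col1a1 (-1.19) and Dcn (-0.23), and 4 did not pass (limma), with sums over 7 such genes of 99537 to 102849 on the controls and 91834 to 92584 on the inhibitor arrays. Of 7 proliferation and myoblast markers 3 fell (limma), the cell cycle genes Mki67 (-0.94), Top2a (-0.93) and Cdk1 (-0.81). Pax7 (-0.05), Myf5 (0.09), Id1 (0.21) and Id3 (0.06) did not pass. Sums over the 7 were 11859 to 12639 on the controls and 9522 to 9922 on the inhibitor arrays. Of 15 differentiated skeletal muscle markers tested 0 passed (limma), where 8.01% of all genes tested did, with a median log2 difference of 0.02. An unadjusted p under 0.05 (limma) was reached by 5, where 22.3% of all genes tested reached it. These 5 moved both ways, with Ttn (0.29) and Chrna1 (0.19) higher and Mef2c (-0.28), Actc1 (-0.23) and Myh3 (-0.16) lower. The part of these marker lists in the results was not tested.

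The parallel link from laminin to the cytoskeleton runs through the integrin Itga7 with Itgb1. Of 17 genes of this link and of the costamere that were tested, 1 rose, 1 fell and 15 did not pass (limma), near the 4.28% of all genes tested that rose and the 3.74% that fell. Itga7 read 5618 and 5588 with vehicle, 7152 with TC and 6463 with S2101 (log2 difference 0.28 ± 0.07; adjusted p = 0.0457, limma). Its call ended without control 1 (adjusted p = 0.162), control 2 (0.188) or TC (0.134). Itgb1 read 6267 and 6655, then 5092 and 5120.3 (-0.34 ± 0.07; adjusted p = 0.0141), lost its call without control 2 (0.142), and had a second bright probe set with a difference of 0.09. Averaging the Itgb1 probe sets gave -0.18 (adjusted p = 0.385, limma). Actn2, a Z-disc actinin (-0.42 ± 0.16; adjusted p = 0.145), and Tln2, a talin that couples integrins to actin (-0.32 ± 0.11; adjusted p = 0.127), did not pass.

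**Figure D4:**
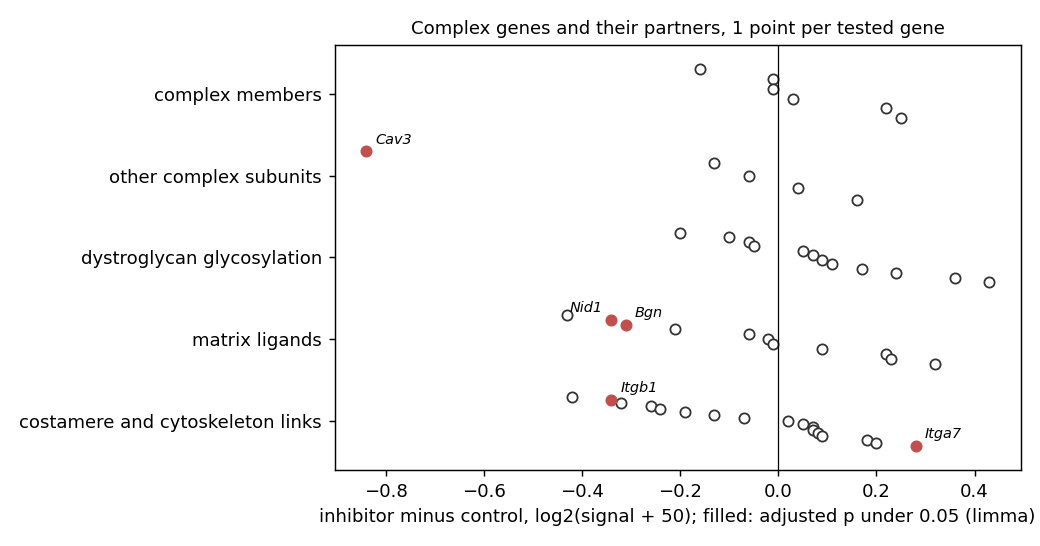
Each point is 1 tested gene placed by its inhibitor minus control difference in log2(signal + 50), in 5 groups, and filled points passed at an adjusted p under 0.05 in limma. No complex member or glycosylation gene is filled, while Cav3 (-0.84), Nid1 (-0.34), Bgn (-0.31), Itgb1 (-0.34) and Itga7 (0.28) are.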

How the data were processed

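The deposited values are signal intensities per probe set, made by the authors with MAS5 and Affymetrix Expression Console per the submitters' processing notes, from biotinylated cRNA of 250 ng total RNA per the labels. No version or setting is given in the sources used here. Detection calls were not analysed here. The 2% trimmed mean was 500.0 on each array. Of 45101 probe sets, 34945 carried 1 gene symbol, and 34741 matched the gene table (GRCm38.p6) by identifier. Each of 18193 genes took its brightest probe set by mean signal. The test covered the 9097 genes whose mean reached that of the median gene (178.8), on log2(signal + 50), which understates changes of dim genes, using lmFit and eBayes with an intensity trend from limma 3.58.1 (R 4.3.3) and Benjamini-Hochberg adjustment at 0.05. TC and S2101 were pooled against 2 controls (2 residual degrees of freedom, prior 8.08), and singly in a fit with 3 groups (1 and 8.37). Treating the compounds as replicates was a choice made here. The fit was tested on simulated data with planted changes larger than the inhibitor differences of the tested members. It therefore does not bear on differences of that size. Text names every member, partners past the test, and the 3 largest differences of each partner list. The members and lists were chosen with earlier results of these data known. Lama2 was named after its values were seen. Alternatives varied the offset, filter, probe set, variance trend and scaling, and left out each array. The number of arrays limits the precision.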

Additional observations from a re-analysis of the deposited data

Results flagged for a closer look

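The second Sgce probe set stood out because the compounds lay on opposite sides of both controls. It read 47.4 and 20.1 with vehicle, 49.8 with TC and 4.3 with S2101, and TC minus S2101 was 0.88 on the log2 scale. This difference was not tested, since the mean signal of 30.4 lies below the limit for testing.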

How the results depend on the processing

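The count of complex genes past the test for the inhibitors was 0 under all 13 alternatives run. Counts over all genes moved more. For the inhibitors, 729 genes passed, against 266 without a filter on dim genes, 457 with a filter at the 75th percentile gene, 478 with probe sets of a gene averaged and 423 without an intensity trend, and between 501 and 749 with 1 array left out. For TC the count of 744 became 12 without the filter and 83 without the trend. For S2101 the count of 610 became 8 and 112. For TC against S2101 the count of 3 became 0 without the filter or the trend, 22 with averaged probe sets and 10 with arrays centred on the median. The cause of these shifts was not tested. The sign of the Dag1 and Sntb1 differences from control and of the Sgce difference for both inhibitors held under all alternatives run. The filter, the trend and testing each probe set singly leave the difference of the main probe set as it is. Its sign could therefore not change under those settings. A bright Sntb1 probe set other than the main one had the opposite sign (-0.07 for both inhibitors). Dmd, too dim to test, ranged from 0.03 to 0.37 for both inhibitors, and Sgcd from -0.60 to 0.07. Without a control array the fit with 3 groups has no residual degrees of freedom, so single compounds then have values and no test. Of the partners, Bgn, Nid1 and Itga7 also lost their calls without the filter (adjusted p = 0.113, 0.0887 and 0.146, limma) or the trend (0.0988, 0.0952 and 0.156), and Itgb1 likewise (0.0669 and 0.0871). These partner alternatives were chosen after seeing the data. No paired analysis was possible because the TC and S2101 groups hold 1 array each and share fewer than 2 replicate numbers with the controls.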
